A study of Sus scrofa with 35 samples.

Results

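Expression of 10 genes of the blood vessel lining was examined in pig back muscle (longissimus dorsi) under heat stress: VEGFA, ANGPT1, KDR, FLT1, TEK, ENG, CDH5, PECAM1, VWF and NOS3. Their probes were taken as all non-control probes that carry one of these gene names in the scanner files, whatever the case of the letters. This gave 28 of the 60305 probes on the array and 10 of the 11409 genes named on it. The rule uses the gene names and no measured value, but the genes were chosen with earlier results of these data known. The shares of all genes given below are therefore a description and not a test of the set.

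The samples were muscle RNA of castrated male pigs from the Creole breed, the Large White breed and F1 animals bred from both, with 1 array per pig. Thermoneutral (TN) pigs are labelled 24 °C and heat-stressed (HS) pigs 30 °C, but the challenge was at 32 °C by the growth protocol and the methods. HS pigs were slaughtered after 4 or 5 days of it. There were 6 arrays each of Creole TN, Creole HS, F1 TN, Large White TN and Large White HS, and 5 of F1 HS. All pigs entered the climatic room at 11 weeks of age, ate freely and were kept at 80% relative humidity. Per the methods each breed consisted of 3 blocks of 4 littermates, so that arrays of a breed are not fully independent. TN pigs were slaughtered before the temperature rose and HS pigs after it, from other pens. Temperature therefore cannot be told apart from slaughter day, age, pen and the lower feed intake. Each pen and each litter held pigs of 1 breed, so differences between breeds are also differences between pens and litters. The fits below treat the arrays as independent.

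Endothelial cells line all blood vessels and are packed densely around muscle fibres as capillaries. Vascular endothelial growth factor A, the product of VEGFA, is released by muscle fibres and other cells and acts on the receptor tyrosine kinases KDR (VEGFR2) and FLT1 (VEGFR1). KDR carries most of the growth signal, whereas FLT1 binds the ligand tightly and signals weakly. Angiopoietin 1, from ANGPT1, is made mainly by cells around the vessel and acts on the endothelial receptor TEK (TIE2), which keeps vessels quiescent. Endoglin (ENG) is a co-receptor for BMP and TGF-beta ligands. VE-cadherin (CDH5) and PECAM1 hold neighbouring endothelial cells together. Von Willebrand factor (VWF) is stored in endothelial cells and platelets and tethers platelets at injured vessels, and endothelial nitric oxide synthase (NOS3) makes the gas that relaxes the vessel wall.

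The array reads a gene through probes of 60 bases, and the results below depend on which probe is read. Probes of VWF, FLT1 and VEGFA are shown first. The KDR and PECAM1 probes, whose results also depend on the probe, are not printed. The pair of VWF probes behaved differently from each other with temperature:
VWF A_72_P293294: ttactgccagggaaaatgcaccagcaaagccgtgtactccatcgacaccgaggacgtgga
VWF O2738: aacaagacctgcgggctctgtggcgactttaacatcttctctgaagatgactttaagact
The pair of FLT1 probes moved in the same direction:
FLT1 A_72_P305829: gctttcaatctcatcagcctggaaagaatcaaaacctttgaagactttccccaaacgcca
FLT1 O10586: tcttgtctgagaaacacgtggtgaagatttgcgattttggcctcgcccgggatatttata
For VEGFA, 1 of the 4 probes was designed on the opposite strand. The run of 38 bases in capitals is the same stretch in both probes, read on opposite strands:
VEGFA A_72_P414353: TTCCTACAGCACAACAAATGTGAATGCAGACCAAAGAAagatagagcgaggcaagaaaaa
VEGFA O11835: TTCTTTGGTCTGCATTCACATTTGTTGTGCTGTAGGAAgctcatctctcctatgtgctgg
All sequences are printed 5′ to 3′ as the scanner files give them. The files give no position for these probes and no genome sequence was used here, so no coordinates are printed.

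Of the 28 probes, 26 passed the filter on dim probes, which kept a probe if, in any group, 75% or more of its arrays read it well above background. The exceptions were 1 of 3 NOS3 and 1 of 3 VWF probes. Each gene is described by its brightest kept probe, and for all 10 genes this probe read well above background on all 35 arrays. Values are log2 normalised intensities, and a difference of 1 is a doubling. Intensities of different probes are not comparable, so levels are compared between groups and not between genes. In whole muscle, fewer endothelial cells and less RNA per endothelial cell cannot be told apart.

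**Figure D1:**
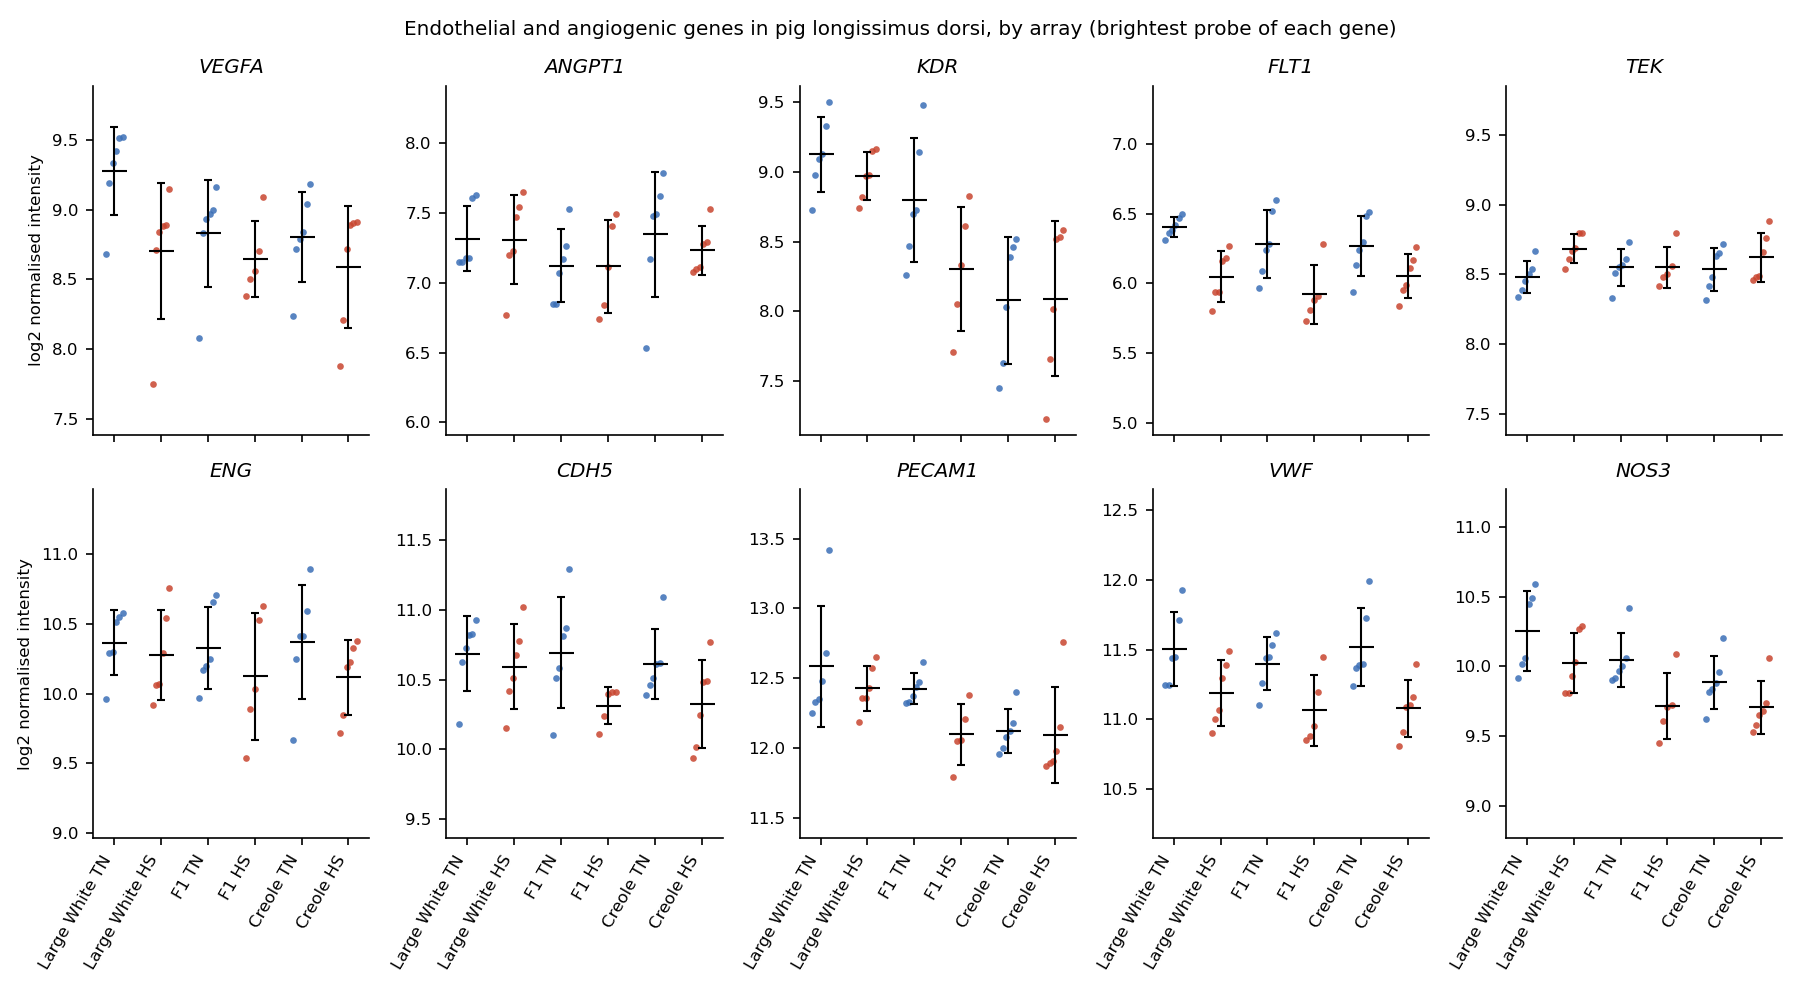
Each panel plots 1 gene: the x axis gives the 6 groups, the y axis the log2 normalised intensity of the brightest probe over an equally wide range in each panel, with 1 point per array and the mean ± SD in black. Blue is TN and red is HS. VWF and FLT1 sat lower in HS in each breed, and KDR sat lower in Creole than in Large White at both temperatures.

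Across all arrays the 75th percentile of the unnormalised intensity had a median of 9.01 on TN arrays (range 8.73 to 9.4, log2) and 9.19 on HS arrays (range 8.88 to 9.62), so HS arrays were somewhat brighter before normalisation. The tissue label was checked with 10 skeletal muscle markers, whose mean lay between 17.83 and 18.36 on every array. Macrophage genes also moved with temperature. Of 10 measured leukocyte markers, 9 had a difference above 0 and 4 were called higher in HS, against 8.45% of all genes. Over all genes 56.4% had a difference below 0. The calls were led by LYZ, CSF1R and TYROBP, genes of myeloid cells. The pan-leukocyte gene PTPRC, named after its value was seen, differed by -0.02. The mean of the 10 markers ran from 7.52 to 10.23 on TN arrays and from 8.88 to 10.51 on HS arrays. Values with the leukocyte mean or the array brightness as a covariate are given below for the genes that they moved.

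To see how the vessel genes responded to heat, temperature was tested in an additive limma model with breed, fitted to the 35 arrays, with Benjamini-Hochberg adjustment over all 41517 kept probes. VWF, FLT1 and NOS3 were lower in HS at an adjusted p below 0.05, by 15.5% to 22.3% as ratios of normalised intensity, and none of the 10 genes was called higher. Thus 3 of 10 were called lower, where 9.8% of all 9552 genes measured by their brightest probe were called lower, 8.45% higher and 18.2% in either direction. The differences of 9 of the 10 genes were below 0, TEK being the exception, and 56.4% of all genes were below 0. The median of the 10 genes was -0.22, against -0.02 over all genes.

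Among the ligands, VEGFA had its highest values on Large White TN arrays, with a lowest value of 8.68, a median of 9.38 and a highest of 9.52. Large White HS arrays ran from 7.75 through 8.86 to 9.15, F1 TN from 8.08 through 8.95 to 9.16 and Creole TN from 8.24 through 8.82 to 9.18. Creole HS arrays ran from 7.88 through 8.8 to 8.91, and the 5 F1 HS arrays read 8.38, 8.5, 8.56, 8.7 and 9.09. The HS and TN values of VEGFA therefore overlapped in all breeds. The TN mean was 8.97 ± 0.39 (SD, n = 18) and the HS mean 8.64 ± 0.39 (SD, n = 17), a difference of -0.33 (95% interval -0.58 to -0.07) that did not pass the threshold (limma adjusted p = 0.0665). It was called without F1 TN replicate 2 (-0.38, adjusted p = 0.0215), Large White TN replicate 6 (-0.36, 0.0402), Creole TN replicate 3 (-0.37, 0.0353) or F1 HS replicate 2 (-0.36, 0.0425). With the leukocyte mean as a covariate it was -0.03 (adjusted p = 0.902), and with array brightness as a covariate -0.16.

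The other VEGFA probes gave different sizes. Probe A_72_P441494 differed by -0.19 (adjusted p = 0.127) and A_72_P443769 by -0.17 (adjusted p = 0.239). The opposite-strand probe O11835, whose sequence is given above, differed by 0.03 (95% interval -0.10 to 0.15). Around the group means, A_72_P414353 and A_72_P441494 varied together over the 35 arrays (r = 0.90), while the r of A_72_P414353 with O11835 was 0.30.

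ANGPT1, read by a single probe, had a TN mean of 7.26 ± 0.33 (SD, n = 18) and an HS mean of 7.23 ± 0.27 (SD, n = 17). Values ran from 6.53 to 7.79 in TN and from 6.74 to 7.65 in HS and overlapped almost entirely. The difference of -0.04 (95% interval -0.24 to 0.16, adjusted p = 0.807) had the opposite sign when arrays were scaled by their spike-in controls (0.07) and with array brightness (0.02) or the leukocyte mean (0.04) as a covariate.

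Among the receptors, FLT1 was lower in HS. Large White TN arrays ran from 6.31 through a median of 6.4 to 6.5 and Large White HS arrays from 5.8 through 6.05 to 6.27, without overlap. The share of all probes without overlap in this breed is not given here. Creole TN arrays ran from 5.94 through 6.27 to 6.51 and Creole HS arrays from 5.84 through 6.05 to 6.26. F1 TN arrays ran from 5.97 through 6.26 to 6.6, and the F1 HS arrays read 5.73, 5.81, 5.88, 5.91 and 6.28. All 17 HS arrays lay below the TN mean of their breed. FLT1 fell from 6.32 ± 0.19 (SD, n = 18) to 6.01 ± 0.18 (SD, n = 17), a difference of -0.31 (SE 0.06, adjusted p = 0.00146) or 19.3%. The second FLT1 probe, O10586, also fell, by -0.23 (SE 0.07, adjusted p = 0.0348), with 15 of 17 HS arrays below the TN mean of the breed. With the leukocyte mean as a covariate FLT1 differed by -0.33 (adjusted p = 0.01). FLT1 was called under all 16 alternatives and without any 1 of the 35 arrays. Under the alternatives its difference ran from -0.59 to -0.2. On the 4 slides that held 8 arrays each, the difference within the slide ran from -0.54 to -0.13. Both FLT1 probes read at low intensity, O10586 from 5.77 to 6.72 in TN and from 5.68 to 6.49 in HS. The KDR probe called dim below ran from 5.59 to 6.56 in TN. A_72_P305829 read well above background on all 35 arrays. Since no background was subtracted, the 19.3% is a ratio of intensities that include it.

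KDR, the other VEGF receptor, had values of 7.45 to 9.5 in TN and 7.23 to 9.16 in HS for its brightest probe, A_72_P380298. This wide range followed the breed, as described below. The difference with temperature was -0.20 (95% interval -0.48 to 0.07, adjusted p = 0.310), with 11 of 17 HS arrays below the TN mean of the breed. It was -0.10 with the leukocyte mean, -0.07 with array brightness as a covariate and -0.06 under spike-in scaling. Probe A_72_P442740 gave a TN mean of 7.44 ± 0.29 (SD, n = 18) and an HS mean of 7.15 ± 0.26 (SD, n = 17), and KDR fell by this probe (-0.29, SE 0.09, adjusted p = 0.0208, 15 of 17 HS arrays). The remaining probe, O306, was dim (5.59 to 6.56 in TN and 5.6 to 6.21 in HS) and differed by -0.08 (adjusted p = 0.385). The KDR result therefore depended on the probe. A_72_P442740, the only one called, had no accession that matched a gene in the RefSeq table, while A_72_P380298 matched KDR.

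TEK, the angiopoietin receptor, was the only gene of the 10 with a difference above 0, and this held for all 4 of its probes (0.05 to 0.12). None of the 4 had an accession that matched a gene in the RefSeq table, so they rest on the gene name in the files. TN values of the brightest ran from 8.32 to 8.73 (mean 8.52 ± 0.13, SD, n = 18) and HS values from 8.42 to 8.88 (mean 8.62 ± 0.14, SD, n = 17). The difference was 0.10 (SE 0.05, adjusted p = 0.177), and 6 of 17 HS arrays lay below the TN mean of the breed. It passed the threshold under median scaling (0.18, adjusted p = 0.0256) and with spike-in scaling (0.25, adjusted p = 0.0351). ENG ran from 9.67 to 10.89 in TN and from 9.54 to 10.76 in HS, and its difference of -0.18 (95% interval -0.40 to 0.04) did not pass the threshold (adjusted p = 0.253). With the leukocyte mean as a covariate ENG differed by -0.35 (adjusted p = 0.0649), and under spike-in scaling by -0.02. Its pair of probes gave nearly the same profile over arrays (r = 0.96).

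The junction genes CDH5 and PECAM1 were not called. CDH5 had a median of 10.63 in TN (highest 11.29) and of 10.41 in HS (9.94 to 11.02), overlapping widely, with 14 of 17 HS arrays below the TN mean of the breed. Its difference was -0.25 (95% interval -0.45 to -0.06, adjusted p = 0.0692). CDH5 passed the threshold with slide as a fixed block (-0.28, adjusted p = 0.0284). It also passed when 1 of these was left out: Large White TN replicate 6 (-0.29, 0.0258), F1 TN replicate 2, Large White HS replicate 6 or Creole HS replicate 2 (-0.28 each, adjusted p from 0.0291 to 0.042). With the leukocyte mean as a covariate it was -0.08 (adjusted p = 0.685), and under spike-in scaling -0.09. PECAM1 differed by -0.17 (95% interval -0.35 to 0.01, adjusted p = 0.194), and its 3 other probes by -0.16 to -0.09. With array brightness as a covariate the PECAM1 difference was -0.11, and under spike-in scaling -0.05.

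VWF showed the largest fall of the 10 genes in the main fit. Under the alternatives the lowest difference was -0.39 for VWF and -0.59 for FLT1. Large White TN arrays ran from 11.25 through a median of 11.45 to 11.93 and Large White HS arrays from 10.9 through 11.19 to 11.49. Creole TN arrays ran from 11.24 through 11.39 to 11.99 and Creole HS arrays from 10.81 through 11.1 to 11.4. F1 TN arrays ran from 11.1 through 11.44 to 11.62, and the F1 HS arrays read 10.85, 10.88, 10.95, 11.2 and 11.45. TN and HS values overlapped in each breed, but 16 of 17 HS arrays lay below the TN mean of their breed. VWF fell from 11.48 ± 0.24 (SD, n = 18) to 11.11 ± 0.22 (SD, n = 17), a difference of -0.36 (SE 0.08, adjusted p = 0.00226) or 22.3%. The within-slide values ran from -0.5 to -0.2 on 4 of 4 slides. The call was lost under spike-in scaling (-0.23, adjusted p = 0.101) and held with the leukocyte mean (-0.35, adjusted p = 0.0229) and with array brightness (-0.30, adjusted p = 0.0318) as a covariate.

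The second VWF probe, O2738, ran from 5.38 to 6.17 in TN and from 5.51 to 5.89 in HS, and differed by -0.03 (95% interval -0.15 to 0.08, adjusted p = 0.739). Its deviations from the group means were unrelated to those of A_72_P293294 (r = -0.01, rho = 0.02, 35 arrays). The fall of VWF was therefore seen by A_72_P293294 alone. O2738 read near the level of the VWF probe that failed the filter (medians 5.28 in TN and 5.22 in HS). Its values therefore cannot show whether the gene fell. VWF is also a platelet product. Of 4 measured platelet and megakaryocyte markers (median -0.12) ITGA2B (-0.15, adjusted p = 0.0267) and GP9 (-0.21, adjusted p = 0.0271) fell, against 9.8% of all genes called lower. The mean of the 4 ran from 8.94 to 9.21 in TN and from 8.82 to 9.12 in HS. Their part in the VWF result was not tested.

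NOS3 fell as well. Its values ran from 9.62 through a median of 9.98 to 10.59 in TN and from 9.45 through 9.74 to 10.29 in HS, with overlap in each breed and 13 of 17 HS arrays below the TN mean of the breed. The difference was -0.24 (SE 0.07, adjusted p = 0.0205), from 10.06 ± 0.26 (SD, n = 18) to 9.82 ± 0.25 (SD, n = 17). Within the 4 slides it ran from -0.41 to 0.01. The second kept probe, O9443, differed by -0.16 (adjusted p = 0.113). The NOS3 call was the least stable of the 3. It was lost under median scaling (-0.16, adjusted p = 0.129), under spike-in scaling (-0.09, adjusted p = 0.584), with array brightness (-0.21, adjusted p = 0.123) or the leukocyte mean (-0.21, adjusted p = 0.136) as a covariate and without the breed term (adjusted p = 0.0524).

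**Figure D2:**
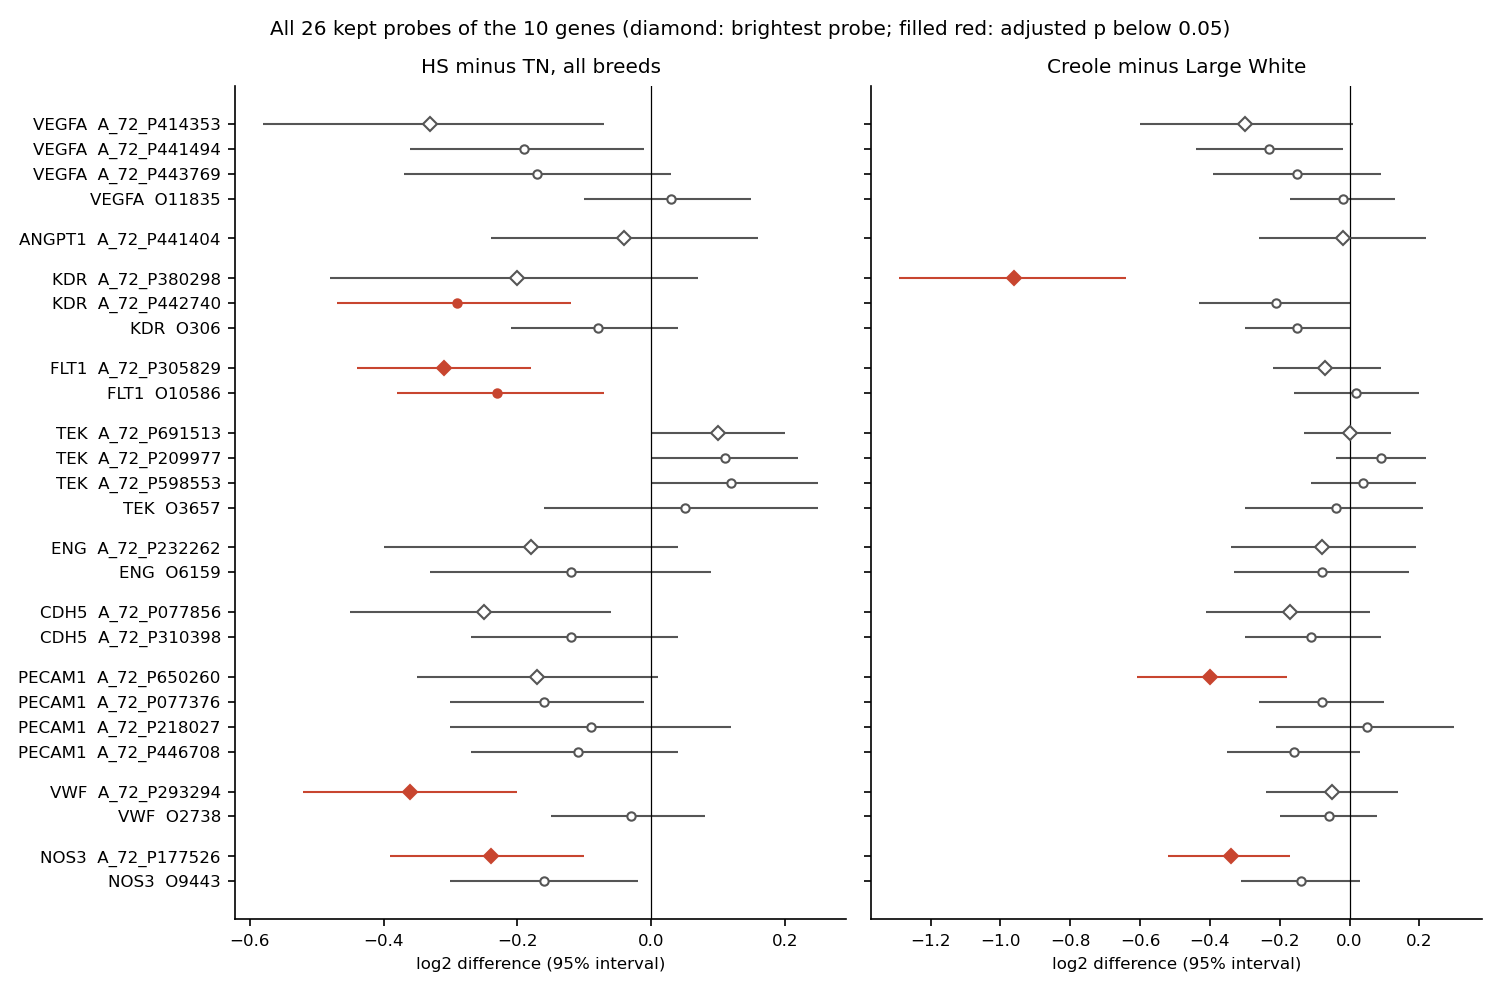
Log2 differences (x axis) with 95% intervals for each of the 26 kept probes (y axis, grouped by gene), for HS minus TN on the left and Creole minus Large White on the right, with a different x scale in each panel. Diamonds are the brightest probe of a gene and filled red symbols have an adjusted p below 0.05. In the left panel 5 probes are called, all lower in HS, and in the right panel 3 probes are called, all lower in Creole.

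Counted by probe, 5 of 26 were called lower in HS (VWF, NOS3, KDR by 1 probe each and FLT1 by its pair), against 8.3% of all kept probes called lower. A total of 21 of the 26 differences were below 0, beside 56.1% of all kept probes. The exceptions were the 4 TEK probes and the opposite-strand VEGFA probe.

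The question of whether the breeds responded alike was addressed within each breed and with an interaction test. None of the 10 genes was called within a breed. In Creole, 1 gene had an unadjusted limma p below 0.05, VWF (-0.44, adjusted p = 0.0739). This is 1 of 10, where 23.9% of all genes had such a p and 2.18% were called by their brightest probe. In F1 there were 6 such genes (CDH5, NOS3, VWF, FLT1, KDR and PECAM1) with differences between -0.49 and -0.33 and a smallest adjusted p of 0.283, where 9.37% of all genes had an unadjusted p below 0.05. In Large White there were 4, with FLT1 at -0.36 (adjusted p = 0.115), VEGFA at -0.57 (0.176), VWF at -0.31 (0.243) and TEK at 0.20 (0.225), where 17.3% of all genes had such a p. By the brightest probe 0.0% of all genes were called in F1 and 0.0105% in Large White, so that calls were rare in these breeds for all genes. VWF differed by -0.44, -0.34 and -0.31 and FLT1 by -0.21, -0.36 and -0.36 in Creole, F1 and Large White. The interaction test called no gene (none of the 10 had an unadjusted limma p below 0.05, smallest adjusted p = 0.963), nor any kept probe (0.0%). Among the 26 kept probes of these genes, TEK A_72_P598553 alone had an unadjusted limma p below 0.05 for the interaction (adjusted p = 0.963).

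Breed differences were then examined with temperature in the model. By their brightest probes KDR, NOS3 and PECAM1 were lower in Creole than in Large White, by 21.2% to 48.7%, and no gene was called higher in Creole. The count of 3 of 10 stands beside 2.22% of all genes called lower and 3.71% called in either direction. The 10 differences were all below 0, beside 50.3% of all genes. TEK was below 0 by less than the second decimal (-0.00, adjusted p = 0.985). Its sign and that of ANGPT1 (-0.02) turned under 75th percentile scaling (0.01 each). The median of the 10 genes was -0.12, against -0.00 over all genes. Counted by probe, 3 of 26 were called, against 1.92% of all kept probes called lower.

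KDR showed the largest breed difference. Creole TN arrays ran from 7.45 through a median of 8.21 to 8.52 and Creole HS arrays from 7.23 through 8.27 to 8.58. Large White TN arrays ran from 8.73 through 9.11 to 9.5 and Large White HS arrays from 8.74 through 8.98 to 9.16. All 12 Creole arrays thus lay below all 12 Large White arrays. The share of all probes that separate the breeds in this way is not given here. F1 TN arrays ran from 8.26 through 8.72 to 9.48, the F1 HS arrays read 7.71, 8.05, 8.33, 8.61 and 8.83, and these overlapped with each parental breed. The difference of -0.96 (SE 0.16, adjusted p = 0.000348) amounts to 48.7% and held under all 16 alternatives, where it ran from -1.07 to -0.44. On the 4 slides of 8 arrays it ran from -1.79 to -0.57. None of these values was read from the other KDR probes alone, which are described below.

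Creole differed from Large White in KDR by -1.05 at TN (adjusted p = 0.0163) and by -0.88 at HS (adjusted p = 0.100), where 0.879% and 0.23% of all genes were called. No other gene of the 10 was called at either temperature. The TN call was lost without Creole TN replicate 1 (-0.92, adjusted p = 0.0597). F1 differed by -0.48 from Large White (adjusted p = 0.214) and by 0.48 from Creole (adjusted p = 0.252), and by -0.00 from the parental midpoint (95% interval -0.30 to 0.29). The order of the group means was Creole TN, Creole HS, F1 HS, F1 TN, Large White HS and Large White TN, and only 1 of the 5 gaps between neighbours was larger than the SD of either group.

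The breed difference of KDR was that of 1 probe. The other KDR probes, A_72_P442740 (-0.21, 95% interval -0.43 to 0.00, adjusted p = 0.329) and O306 (-0.15, 95% interval -0.30 to 0.00, adjusted p = 0.340), were not called, and their Creole and Large White values overlapped. By A_72_P442740 Creole arrays ran from 6.61 to 7.52 and Large White arrays from 6.84 to 8.19. The r of A_72_P380298 around the group means was 0.70 with A_72_P442740 and 0.33 with O306. No probe was checked for sequence differences between the breeds, since no genome sequence was used here.

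**Figure D3:**
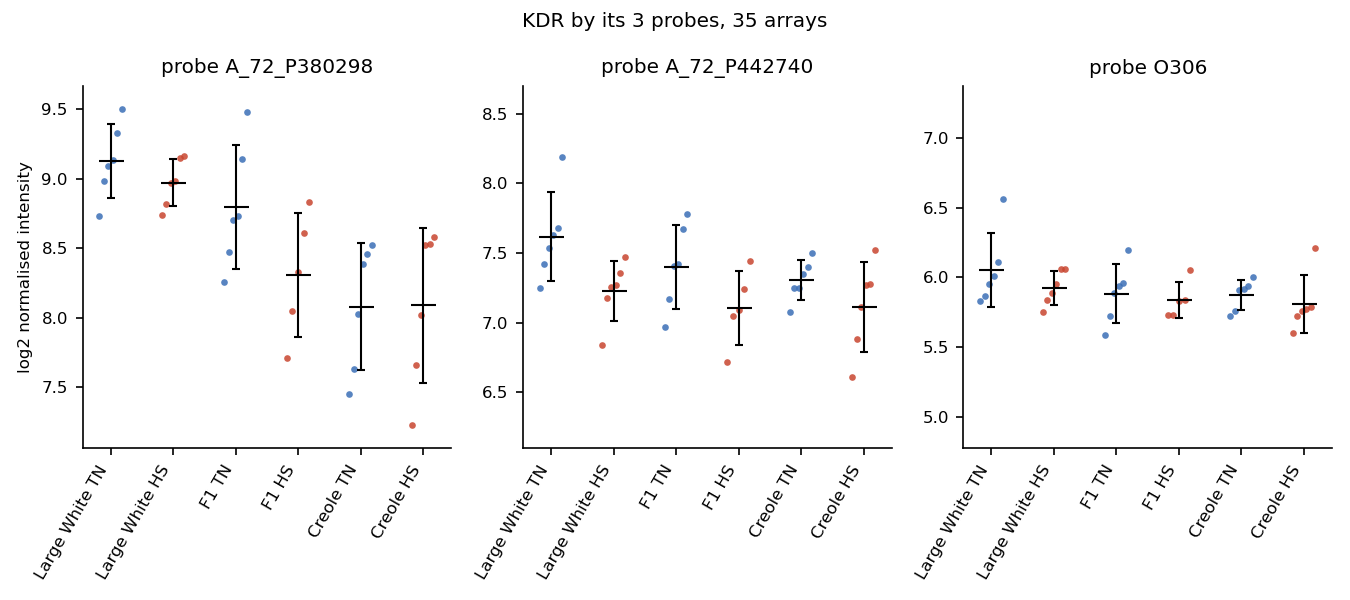
KDR by each of its 3 probes: the x axis gives the 6 groups, the y axis the log2 normalised intensity, with 1 point per array (blue TN, red HS) and the mean ± SD in black. Creole and Large White arrays separate fully by A_72_P380298 and overlap by the other probes.

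NOS3 in Creole was 9.89 ± 0.19 (SD, n = 6) at TN and 9.71 ± 0.19 (SD, n = 6) at HS, against 10.25 ± 0.28 and 10.02 ± 0.22 (SD, n = 6 each) in Large White. The difference of -0.34 (SE 0.09, adjusted p = 0.0194) was seen in 11 of 12 Creole arrays relative to the Large White mean at the same temperature, and ran from -0.71 to 0.01 within the slides. Probe O9443 differed by -0.14 (adjusted p = 0.453), and with the mean over the kept probes NOS3 was not called (-0.24, adjusted p = 0.0565). PECAM1 differed by -0.40 (SE 0.11, adjusted p = 0.0275). Creole TN arrays ran from 11.96 through 12.1 to 12.4 and Creole HS arrays from 11.87 through 11.95 to 12.76. Large White TN arrays ran from 12.25 through 12.41 to 13.42 and Large White HS arrays from 12.19 through 12.39 to 12.65. The breeds overlapped, and 11 of 12 Creole arrays lay below the Large White mean at their temperature. Within the slides the PECAM1 difference ran from -1.02 to -0.19.

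The PECAM1 call depended on the probe too. The 3 other probes differed by -0.16, -0.08 and 0.05, none called, and their mean with the brightest gave -0.15 (adjusted p = 0.466). The accessions of the called probe, A_72_P650260, matched no gene in the RefSeq table for Sscrofa11.1, while those of the 3 others matched PECAM1. With probes named through accessions the PECAM1 difference was 0.05 (adjusted p = 0.920). The call was also lost without Creole TN replicate 3 (-0.37, adjusted p = 0.0503) or Large White HS replicate 1 (-0.37, adjusted p = 0.0504). VEGFA differed by -0.30 (95% interval -0.60 to 0.01, adjusted p = 0.345), CDH5 by -0.17, and the other genes by -0.08 to -0.00. F1 against either parental breed, or against their midpoint, called none of the 10 genes, where 0.304%, 0.356% and 0.115% of all genes were called against Large White, Creole and the midpoint. The smallest adjusted p was 0.214 for F1 minus Large White, 0.252 for F1 minus Creole and 0.775 for the midpoint, and 3, 1 and 0 of the 10 genes had an unadjusted p below 0.05, against 10.9%, 8.67% and 6.99% of all genes.

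Related genes were read from lists beyond the 10. Of 8 other measured VEGF and angiopoietin pathway genes, ANGPT2 (-0.23, adjusted p = 0.0497), an endothelial antagonist of ANGPT1, and PTPRB (-0.30, adjusted p = 0.00864), a phosphatase that restrains TEK signalling, fell and none rose. The list median was -0.06. Of 16 other endothelial surface and junction markers 3 fell and none rose (median -0.06). These were ECSCR (-0.28, adjusted p = 0.00692), thrombomodulin THBD (-0.33, adjusted p = 0.0101), which turns thrombin anticoagulant, and MCAM (-0.26, adjusted p = 0.0153). Among 9 endothelial transcription factors ERG, which maintains endothelial identity, fell (-0.29, adjusted p = 0.0098), and the median was -0.16.

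Of 11 Notch, BMP and lipid receptor genes 4 fell and none rose (median -0.18). The sphingosine-1-phosphate receptor S1PR1 fell by -0.47 (adjusted p = 0.00114), the endothelin receptor EDNRB by -0.37 (adjusted p = 0.0249) and the BMP receptor BMPR2 by -0.21 (adjusted p = 0.0303). Of 7 genes upstream of VEGFA, the hypoxia factor EPAS1 (-0.29, adjusted p = 0.00876), which is abundant in endothelium, and the nuclear receptor ESRRA (-0.25, adjusted p = 0.0256) fell, with a list median of -0.19. These shares stand beside the 9.8% of all genes called lower.

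The next lists stand beside 8.45% of all genes called higher in HS and 9.8% called lower. Of 10 other nitric oxide genes none fell and 2 rose (median 0.03): HSP90AB1 (0.43, adjusted p = 0.000497), a chaperone that binds NOS3 among many clients, and DDAH2 (0.31, adjusted p = 0.0111), which degrades an inhibitor of nitric oxide synthases. Of 6 angiogenesis inhibitors SPARC rose (0.32, adjusted p = 0.00289) and none fell (median 0.11). Of 7 genes of capillary lipid handling ANGPTL4, which inhibits lipoprotein lipase, fell (-1.07, adjusted p = 0.0206) and none rose (median -0.03). None of 11 pericyte and smooth muscle markers was called (median -0.03). Of 4 lymphatic endothelial markers PDPN rose (0.89, adjusted p = 0.000478) and none fell (median 0.01).

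Markers of other cells in the tissue are read against the same shares of all genes, 8.45% called higher and 9.8% lower. The leukocyte list had a median difference of 0.72, and the red cell list one of -0.33, with HBB at -1.21 (adjusted p = 0.000536) and AHSP at -0.44 (adjusted p = 0.0479). The red cell mean ran from 8.01 to 9.06 in TN and from 7.49 to 8.72 in HS. Of 7 fibroblast markers 3 rose, led by LUM (0.39, adjusted p = 0.00534), FN1 (0.84, adjusted p = 0.0105) and COL3A1 (0.33, adjusted p = 0.0111), with a median difference of 0.33, and their mean ran from 11.89 to 13.59 in TN and from 13.03 to 13.8 in HS. Of 10 skeletal muscle markers MYH2 (-0.21, adjusted p = 0.0144) and TTN (-0.37, adjusted p = 0.017) fell (median -0.05), and none of 5 adipocyte markers was called (median 0.04). The part of red cells, fibroblasts and muscle fibres in the endothelial results was not tested.

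**Figure D4:**
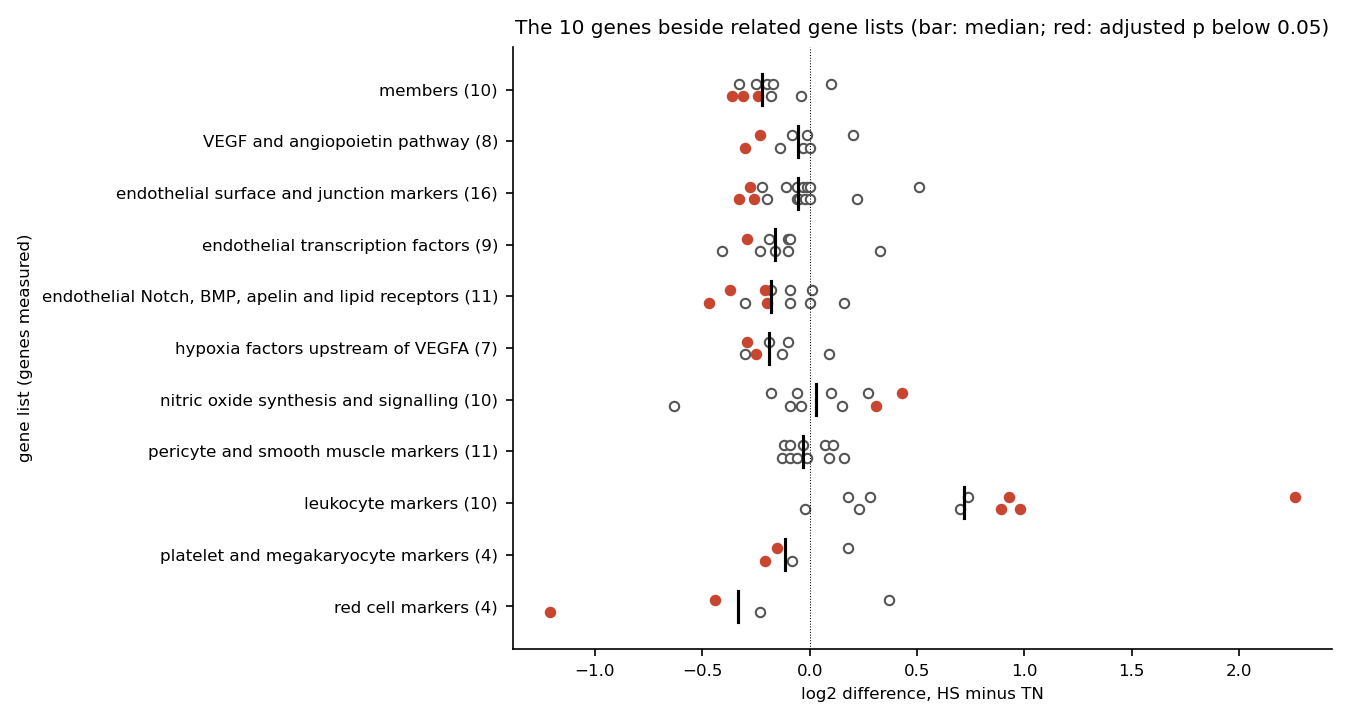
Log2 difference HS minus TN (x axis) of each measured gene in 11 lists (y axis, number of genes in brackets), 1 point per gene by its brightest probe, with the list median as a black bar. Red points have an adjusted p below 0.05. The median of the 10 genes is -0.22, that of the pericyte list -0.03 and that of the leukocyte list 0.72.

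Between Creole and Large White the same lists are read against 2.22% of all genes called lower in Creole and 1.49% called higher. Of 16 surface and junction markers 3 were lower in Creole and none higher (median -0.16): CLDN5 (-0.59, adjusted p = 0.0205), which seals endothelial junctions, ECSCR (-0.33, 0.0225) and PLVAP (-0.56, 0.03), which forms the diaphragms of fenestrae. In 5 further lists 1 gene was lower and none higher. These were the VEGF family ligand PGF of 8 pathway genes (-0.31, adjusted p = 0.0371, list median -0.20), ERG of 9 transcription factors (-0.34, 0.0299, median -0.13) and EDNRB of 11 Notch, BMP and lipid receptor genes (-0.77, 0.000842, median -0.11). GUCY1A1, a subunit of the nitric oxide receptor, was lower among 10 nitric oxide genes (-0.42, adjusted p = 0.0122, median -0.08). ANGPTL4, among 7 genes of capillary lipid handling, had the largest difference of the called genes in these lists (-1.64, adjusted p = 0.0105, median -0.21).

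Of 11 pericyte markers RGS5 was lower in Creole (-0.45, adjusted p = 0.0188) and ABCC9 higher (0.97, adjusted p = 0.0183), with a median of -0.02. COL3A1 (-0.43, adjusted p = 0.0189) and DCN (-0.28, 0.0314) were lower among 7 fibroblast markers. The differences of all 7 were below 0 (median -0.37), beside 50.3% of all genes. No gene was called among 6 angiogenesis inhibitors (median -0.14), 7 hypoxia factors (0.04), 4 lymphatic (0.09), 10 leukocyte (-0.21), 4 platelet (-0.03), 4 red cell (-0.31), 5 adipocyte (-0.11) or 10 skeletal muscle (0.00) markers. Fibroblast levels thus moved with breed in the same direction as KDR, NOS3 and PECAM1, and their part in those results was not tested.

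How the 10 genes varied from pig to pig was described after subtracting each group's mean, over the 35 arrays, which share slides, depth of signal and litters. Among the 45 pairs of genes the Pearson r ran from -0.43 to 0.68 with a median of 0.26 (median rho 0.20), and 35 were above 0. The median over pairs of all genes was 0.01. Pairs of probes for the same gene had a median r of 0.66. CDH5 was closest to KDR (r = 0.68, rho = 0.70), NOS3 (r = 0.66, rho = 0.61) and VEGFA (r = 0.66, rho = 0.52), and without the 2 arrays farthest from the CDH5 median these values were 0.63, 0.62 and 0.63. The r with array brightness was -0.43 for CDH5, -0.43 for KDR, -0.22 for NOS3 and -0.49 for VEGFA. With the mean of the skeletal muscle markers it was 0.51, 0.6, 0.27 and 0.56 in the same order. The part of brightness and muscle fibres in these pairs was not tested. FLT1 and KDR, which share the ligand, gave r = 0.56 (rho = 0.60, and 0.50 without 2 arrays). ANGPT1 stood apart, with a median r of 0.01 with the other genes. VEGFA had a median of 0.1 and VWF one of 0.14.

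**Figure D5:**
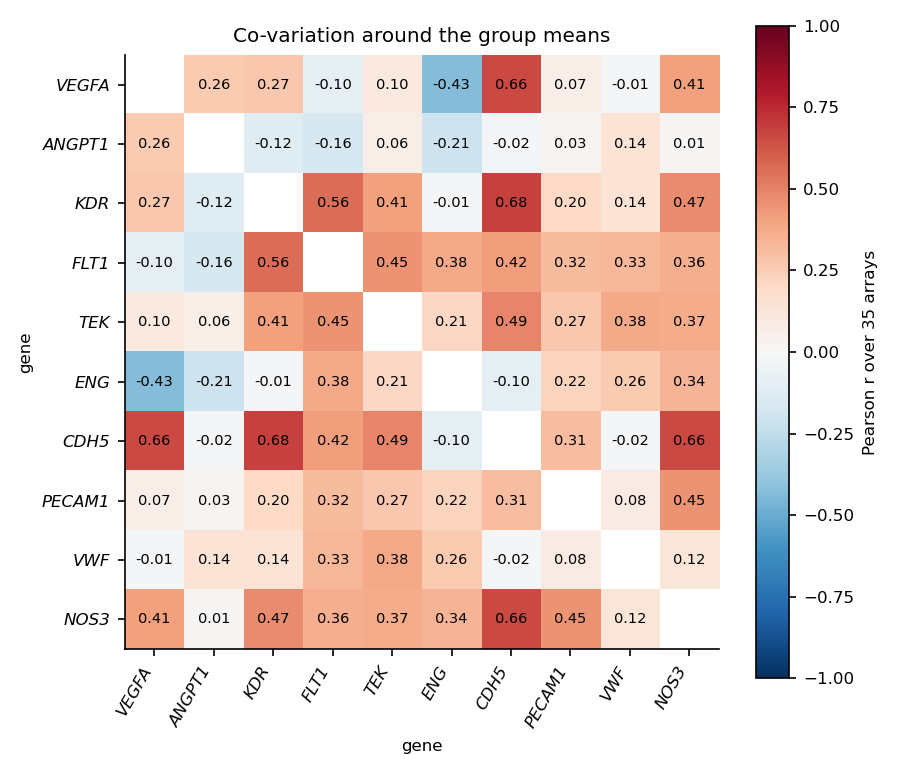
Pearson r between the brightest probes of the 10 genes (both axes) over 35 arrays after subtraction of the group means, in colour from -1 to 1 and as numbers. CDH5 with KDR is highest at 0.68 and ENG with VEGFA lowest at -0.43.

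VEGFA and ENG varied in opposite directions (r = -0.43, rho = -0.41, and -0.51 without the 2 arrays farthest from the ENG median). They also stood at opposite ends against the leukocyte marker mean, with r = -0.71 for VEGFA (rho = -0.69), -0.55 for CDH5 (rho = -0.55) and 0.47 for ENG (rho = 0.45). With the mean of the 7 genes upstream of it, VEGFA had r = 0.74 (rho = 0.65). Against the mean of the other endothelial surface markers, NOS3 (r = 0.65, rho = 0.63), PECAM1 (r = 0.60, rho = 0.53), ENG (r = 0.59, rho = 0.61) and FLT1 (r = 0.54, rho = 0.57) were highest, and VEGFA was at 0.00 (rho = -0.10). Without the 2 farthest arrays the r of PECAM1 was 0.41.

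The 5 genes outside the 10 whose profiles were most like CDH5 were MYCT1 (r = 0.82, rho = 0.72), UNC5B (r = 0.81, rho = 0.71), TBXA2R (r = 0.81, rho = 0.71), CAV2 (r = 0.80, rho = 0.73) and ITIH5 (r = 0.79, rho = 0.75), each over 35 arrays. Those most like VEGFA were SPRYD4 (r = 0.82, rho = 0.71), VPS13A (r = 0.82, rho = 0.64), DTNA (r = 0.81, rho = 0.66), ACOT13 (r = 0.81, rho = 0.69) and HIBADH (r = 0.81, rho = 0.59). These 2 lists of 5 genes shared no gene.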

How the data were processed

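The authors labelled muscle cRNA with Cy3, hybridised 1 sample per porcine Agilent array and read the spots with Agilent Feature Extraction (version 10.10.1.1 in the submitters' processing notes). The deposited scanner files hold intensity values, and the deposited value table holds log2 values of the authors' quantile normalisation. From the scanner files the median intensity was quantile-normalised without background subtraction and log2-transformed, 105 outlier spots were set to missing, and 41517 of 60305 probes were kept. No spot was saturated. limma 3.58.1 (R 4.3.3) fitted breed and temperature, or 1 mean per group for contrasts within breeds. The labels do not give the random terms of the study's model (pen, slaughter day, parents), which were omitted. Genes were named by the files' gene name. The accessions of 15 of the 28 probes matched the same gene in RefSeq tables, and none matched another. Within-slide values are additive fits on the 4 slides with 8 arrays. Replicate numbers follow deposition order. The fit was tested on simulated data. Endothelial genes and lists were chosen with earlier results of these data known. All 10 genes were described, and from each list counts, the median and up to 3 called genes. The precision is limited by the number of arrays. Alternatives were 4 other scalings or signals, normexp background correction, the deposited table, other filters and probe rules, slide blocks, array weights, covariates and leaving out each array.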

Additional observations from a re-analysis of the deposited data

Results flagged for a closer look

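The 60 combinations of gene and group were screened for an array far from the others of its group. The ratio given is the gap to the nearest array divided by the group's range, and 6 exceeded Dixon's 95% critical value, where chance gives 3. PECAM1 was highest in Large White TN replicate 1 (13.42 against a group median of 12.41, ratio 0.633) and in Creole HS replicate 2 (12.76 against 11.95, ratio 0.681). CDH5 was highest in Creole TN replicate 5 (11.09 against 10.56, ratio 0.667). VEGFA was lowest in Large White HS replicate 5 (7.75 against 8.86, ratio 0.685) and in F1 TN replicate 2 (8.08 against 8.95, ratio 0.69). NOS3 was highest in F1 TN replicate 4 (10.42 against 9.98, ratio 0.692). No difference between breeds in the response to temperature was found by the interaction test.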

How the results depend on the processing

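Of 396 single-gene values under 16 alternatives, 366 kept their direction and side of the threshold, 9 lost a call, 9 gained one and 12 turned sign. Array weights gave 5 called genes for HS minus TN (main count 3, with CDH5 and VEGFA added) and 1 within F1 (main 0). The HS minus TN count was 2 with the leukocyte or brightness covariate and without breed, where NOS3 was lost, and 2 with spike-in scaling, where VWF and NOS3 were lost and TEK was called higher. Spike-in scaling gave 1 within Large White (main 0) and 1 for Creole minus Large White at HS (main 0), as did median scaling (1) and the array brightness covariate (1), in each case KDR at HS. The mean over a gene's kept probes gave 1 for Creole minus Large White (main 3) and 0 at TN (main 1), where slide as a fixed block and the leukocyte covariate gave 2 each. Leaving out 1 array gave 3 to 5 for HS minus TN, the 5 without F1 TN replicate 2 or Large White TN replicate 6. It gave 2 to 3 for Creole minus Large White and 0 to 1 for Creole minus Large White at TN, the 0 without Creole TN replicate 1.

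The values that turned sign were all close to 0 under the alternative, and all but that of PECAM1 were close to 0 in the main fit. For HS minus TN, ANGPT1 was 0.07 with spike-in scaling, 0.02 with brightness and 0.04 with leukocytes as a covariate. For Creole minus Large White, PECAM1 was -0.40 and called in the main fit. It was 0.05 with probes named through accessions, a rule that read another probe, A_72_P218027. TEK was 0.01 with 75th percentile scaling, 0.03 with the processed signal, 0.01 with normexp and 0.02 with the mean of probes (leave-one-out range -0.03 to 0.02). ANGPT1 was 0.01 with 75th percentile scaling (leave-one-out range -0.07 to 0.05). KDR in F1 against the midpoint was 0.000435 with 75th percentile scaling, 0.02 with the leukocyte covariate and 0.01 without temperature (leave-one-out range -0.08 to 0.08). Over all probes, 6654 were called for HS minus TN, against 2092 with the brightness covariate and 2101 with the leukocyte covariate. Of these calls 48.2% were higher in HS, against 27.2% with 75th percentile scaling, 37.5% with the processed signal, 56.7% with median scaling, 86.6% with spike-in scaling and 63.6% with brightness. For Creole minus Large White 1513 were called, 47.4% of them higher, against 920 and 26% with spike-in scaling and 36.3% higher with median scaling. Apart from the probe and accession rules, the causes were not tested. No paired analysis was possible because the labels carry no replicate numbers or litters, and the numbers used here follow deposition order.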
